A study of Mus musculus with 6 samples.

Results

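Small leucine-rich proteoglycans (SLRPs) were examined by RNA-seq in GFP+ cells sorted from pressure-overloaded mouse hearts. The 9 genes described are *Dcn*, *Bgn*, *Lum*, *Aspn*, *Ogn*, *Prelp*, *Omd*, *Podn* and *Ecm2*, chosen by symbol among the 28987 genes of the deposited table. All 9 were among the 15109 genes that passed the filter for expression, set at a mean of 1 or more (linear scale) across the 6 libraries. *Prelp*, *Ogn* and *Aspn* were higher in each library labelled Hsp47-deleted than in any control, by 1.38, 0.98 and 0.98 on the log2 scale. So was *Dcn*, by 0.49, and 18.3% of all tested genes were higher without overlap in this way. With the controls pooled, *Lum*, *Bgn*, *Omd*, *Podn* and *Ecm2* differed by no more than 0.17 in either direction. Against control replicate 2, the only control with the same run label as those libraries, *Ecm2* and *Podn* differed by 0.92 and 0.76. *Prelp*, *Ogn*, *Aspn* and *Dcn* differed from it by 1.32, 0.87, 0.84 and 0.16. None of the 9 differed at a Benjamini-Hochberg (BH) adjusted limma p under 0.05, as 0.245% of all tested genes did. *Prelp*, *Ogn* and *Aspn* were higher at an unadjusted limma p under 0.05, as were 14.5% of all tested genes.

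The study asked which cell types drive fibrosis of the injured heart. To this end Hsp47, a collagen chaperone of the endoplasmic reticulum, was deleted in cardiomyocytes, endothelial cells or activated fibroblasts. The libraries described here belong to its part on activated cardiac fibroblasts. Every mouse behind these libraries carried a MerCreMer cDNA in the *Postn* locus (Postn-MCM), which encodes a Cre recombinase that acts only once tamoxifen is given. Each also carried a Rosa26 eGFP reporter that Cre switches on. The 3 control libraries came from such mice with no loxP-targeted Hsp47 allele, and the 3 libraries labelled Hsp47-deleted came from mice that were in addition homozygous for loxP-targeted Hsp47. All mice received transverse aortic constriction (TAC), in which the aorta is narrowed by surgery, and their ventricle cells were sorted on GFP 4 weeks later. Per the labels, mice were 8 to 10 weeks old at surgery and received tamoxifen by injection (100 mg/kg) and in chow (40 mg/kg). Other tamoxifen doses stand in the paper, whose mice were male C57BL/6. The sort collects cells in which *Postn* was active while tamoxifen was present, and the insertion that drives Cre lies in *Postn* itself. Nothing in the labels says whether a library stands for 1 mouse or a pool, so the p-values measure the spread between these samples only.

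By their labels, control replicates 3 and 4 belong to a run of their own, here the first run. Which steps a run covers is not stated in the labels. Control replicate 2 shared the second run with all 3 libraries labelled Hsp47-deleted. Values are the deposited log2(value + 1), and the linear values summed to between 690499 and 855404 per library. Over the tested genes, control replicate 2 correlated with the libraries labelled Hsp47-deleted at r from 0.872 to 0.936, and with the other controls at 0.827 and 0.761. Differences of the 9 genes are therefore also given against control replicate 2 alone, without a test, as are those of other genes named with a value. *Serpinh1*, which encodes Hsp47, had log2 values of 6.28, 6.10 and 7.60 across control replicates 3, 4 and 2, against 6.87, 6.67 and 6.66 across replicates 1, 2 and 3 labelled Hsp47-deleted, and was not lower in the pooled comparison (0.072, limma, BH-adjusted p = 0.947), whereas it was -0.87 against control replicate 2. A value per gene does not separate the loxP-flanked exon, so the groups are called by their labels. Over all tested genes the median difference was 0.355 log2 units, and 37 of them passed a BH-adjusted p under 0.05.

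SLRPs are secreted proteins with a core of leucine-rich repeats that curves around collagen fibrils. Many carry glycosaminoglycan chains, chondroitin or dermatan sulfate on decorin and biglycan, and keratan sulfate on lumican, osteomodulin and fibromodulin. They set the diameter and spacing of collagen fibrils, and several bind growth factors of the TGF-β family in the matrix. In the heart they are made mostly by fibroblasts.

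In the annotation (GENCODE release M21, GRCm38) 4 of the 9 genes lie side by side on the plus strand of chromosome 13: *Ecm2* (49504810 to 49532789), *Aspn* (49544443 to 49567565), *Omd* (49582462 to 49592822) and *Ogn* (49608046 to 49624501), within 119.7 kb. All 4 lie inside *Cenpp*, a centromere protein gene on the opposite strand. *Dcn* (97479609 to 97518143) and *Lum* (97565128 to 97572703) lie 47.0 kb apart on the plus strand of chromosome 10. *Prelp* (133910304 to 133921414, minus strand) lies on chromosome 1 beside *Optc*, with 2.3 kb between their ends, and its start site is 115.8 kb from that of *Fmod*. *Bgn* (73483602 to 73495933, plus strand) lies on chromosome X and *Podn* (108014791 to 108096445, minus strand) on chromosome 4. No member had a near-identical copy elsewhere among the annotated transcripts.

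RefSeq promoter sequences (GRCm38.p6, from 250 bases before to 50 after the start site) matched 7 of the 9 genes by symbol, all but *Dcn* and *Lum*. Those of *Prelp*, *Ogn* and *Aspn*, the genes with the largest differences, are printed with that of *Omd*, which lies between *Aspn* and *Ogn* and differed by 0.11. Capitals mark matches, on either strand, to CAGAC (a SMAD half-site) or GGAATG (a TEAD site), motifs of factors that act in activated fibroblasts. They stand at chr1:133921352-133921651 (minus strand), chr13:49607765-49608064, chr13:49544193-49544492 and chr13:49582212-49582511 (all plus strand), and read 5′ to 3′:
Prelp: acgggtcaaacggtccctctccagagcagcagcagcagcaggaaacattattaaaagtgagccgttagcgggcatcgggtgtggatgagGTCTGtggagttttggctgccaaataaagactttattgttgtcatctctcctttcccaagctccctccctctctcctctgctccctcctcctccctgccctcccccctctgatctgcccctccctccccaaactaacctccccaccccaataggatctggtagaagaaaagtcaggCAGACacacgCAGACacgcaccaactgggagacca
Ogn: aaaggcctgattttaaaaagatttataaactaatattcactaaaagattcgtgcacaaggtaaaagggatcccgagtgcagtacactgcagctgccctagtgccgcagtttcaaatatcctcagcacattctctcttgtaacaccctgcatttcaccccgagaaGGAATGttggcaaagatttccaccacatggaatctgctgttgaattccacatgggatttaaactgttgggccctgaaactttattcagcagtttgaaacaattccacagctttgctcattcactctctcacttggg
Aspn: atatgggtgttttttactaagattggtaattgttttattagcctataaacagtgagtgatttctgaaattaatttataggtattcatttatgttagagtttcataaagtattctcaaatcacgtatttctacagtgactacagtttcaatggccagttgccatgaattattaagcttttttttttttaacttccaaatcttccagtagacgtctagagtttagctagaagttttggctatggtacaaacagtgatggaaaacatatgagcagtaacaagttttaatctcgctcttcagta
Omd: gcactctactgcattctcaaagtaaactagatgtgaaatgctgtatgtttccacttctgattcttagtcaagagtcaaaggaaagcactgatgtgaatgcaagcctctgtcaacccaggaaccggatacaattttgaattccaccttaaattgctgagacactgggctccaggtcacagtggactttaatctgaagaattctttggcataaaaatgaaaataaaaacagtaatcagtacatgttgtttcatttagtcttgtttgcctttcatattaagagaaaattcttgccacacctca

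*Prelp* held 3 CAGAC matches in this window and *Ogn* held 1 GGAATG match, while *Aspn* and *Omd* held neither. Over all RefSeq promoters of this length, 49.6% held CAGAC and 14.7% held GGAATG. The motif TATAAA, the core box of many tissue-specific promoters, matched 2 times each in *Aspn* and *Ogn*, where the matches in *Ogn* overlap each other, and not in *Prelp* or *Omd*, against 13.6% of all promoters. CANNTG (the E-box) matched 2 times in *Aspn*, 4 times in *Ogn*, 1 time in *Prelp* and not in *Omd*, against 72.3% of all promoters. CCAAT matched 1 time each in *Aspn* and *Prelp* (37.4% of all promoters), and GGGCGG matched in none of the 4 (35.7%). Likewise TGANTCA, the AP-1 site, matched in none (7.81%). Base composition differed, with a GC content of 31.0% for *Aspn*, 37.7% for *Omd*, 42.3% for *Ogn* and 55.3% for *Prelp*, against a median of 52.7%. The 3 windows of genes with the largest differences thus shared no motif that *Omd* lacked other than CANNTG. A match or its absence here describes letters only.

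Decorin, biglycan and asporin form the branch of the family nearest to decorin. *Dcn* encodes decorin, which limits the lateral growth of collagen I fibrils and binds TGF-β. On the log2 scale *Dcn* stood at 12.40, 12.31 and 12.85 across control replicates 3, 4 and 2, against 12.92, 13.08 and 13.03 across replicates 1, 2 and 3 labelled Hsp47-deleted. The groups did not overlap, but control replicate 2 lay closer to the libraries labelled Hsp47-deleted than to the other controls. The means, 12.52 ± 0.29 and 13.01 ± 0.08 (SD, n = 3), differed by 0.49 (standard error 0.36, 95% interval from -0.35 to 1.33, limma, BH-adjusted p = 0.519). Against control replicate 2 the difference was 0.16.

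*Bgn* encodes biglycan, the closest relative of decorin and a ligand of Toll-like receptors when released from the matrix. Values of *Bgn* (log2) were 12.71, 12.87 and 12.35 across control replicates 3, 4 and 2, against 12.68, 12.78 and 12.63 across replicates 1, 2 and 3 labelled Hsp47-deleted. The groups overlapped, with control replicate 2 the lowest of the 6 libraries. The log2 fold change was 0.055 (standard error 0.36, 95% interval from -0.77 to 0.88, limma, BH-adjusted p = 0.951), and 0.34 against control replicate 2.

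*Aspn* encodes asporin, which competes with decorin for collagen and binds TGF-β. The log2 values of *Aspn* were 7.68, 7.73 and 7.90 across control replicates 3, 4 and 2, against 8.58, 9.004 and 8.66 across replicates 1, 2 and 3 labelled Hsp47-deleted. The groups did not overlap, and Hsp47-deleted replicate 2 was the highest library, as it was for *Prelp* and *Ogn*. The means, 7.77 ± 0.12 and 8.75 ± 0.23 (SD, n = 3), differed by 0.98 (standard error 0.28, 95% interval from 0.32 to 1.63, limma, BH-adjusted p = 0.275), and by 0.84 against control replicate 2. Exons of *Aspn* share bases with *Cenpp*, which differed by 0.17 log2 units (limma, BH-adjusted p = 0.807; 0.34 against control replicate 2).

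Lumican, osteomodulin and prolargin form the branch related to fibromodulin. *Lum* encodes lumican, a keratan sulfate proteoglycan of collagen fibrils. *Lum* was measured at log2 values of 10.27, 10.23 and 10.46 across control replicates 3, 4 and 2, against 10.18, 10.30 and 10.16 across replicates 1, 2 and 3 labelled Hsp47-deleted. It was the only one of the 9 with a lower mean in the libraries labelled Hsp47-deleted, and the groups overlapped. The log2 fold change was -0.11 (standard error 0.29, 95% interval from -0.79 to 0.57, limma, BH-adjusted p = 0.874), and -0.24 against control replicate 2, above which no library labelled Hsp47-deleted lay.

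*Omd* encodes osteomodulin, a keratan sulfate proteoglycan first known from bone. For *Omd* the log2 values were 4.86, 4.96 and 4.76 across control replicates 3, 4 and 2, against 4.99, 5.06 and 4.85 across replicates 1, 2 and 3 labelled Hsp47-deleted. The 6 libraries spanned a narrow range and the groups overlapped. The log2 fold change was 0.11 (standard error 0.26, 95% interval from -0.50 to 0.72, limma, BH-adjusted p = 0.859), and 0.21 against control replicate 2.

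*Prelp* encodes prolargin, which anchors basement membranes to collagen. In log2 units *Prelp* reached 8.996, 9.17 and 9.17 across control replicates 3, 4 and 2, against 10.37, 10.87 and 10.23 across replicates 1, 2 and 3 labelled Hsp47-deleted. No control came within 1 log2 unit of the lowest library labelled Hsp47-deleted. The means, 9.11 ± 0.10 and 10.49 ± 0.33 (SD, n = 3), differed by 1.38 (standard error 0.32, 95% interval from 0.65 to 2.11, limma, BH-adjusted p = 0.193). That is a 2.60-fold difference, and against control replicate 2 it was 1.32. *Gm15851*, an antisense gene, shares exon bases with *Prelp*. It had log2 values from 0 to 0.38 in the controls against 1.00 to 1.40 in the libraries labelled Hsp47-deleted, and did not pass the filter. The kit does not mark strand, so reads from the shared bases cannot be assigned to 1 of the 2 genes. In linear values *Gm15851* reached at most 1.65, while *Prelp* lay between 510 and 1869 over the 6 libraries.

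The remaining genes are *Ogn*, *Podn* and *Ecm2*. *Ogn* encodes osteoglycin (mimecan), a keratan sulfate proteoglycan linked to left ventricular mass. Log2 values of *Ogn* were 8.35, 8.33 and 8.51 across control replicates 3, 4 and 2, against 9.24, 9.65 and 9.25 across replicates 1, 2 and 3 labelled Hsp47-deleted. The groups did not overlap, and the controls lay within a narrow band. The means, 8.40 ± 0.10 and 9.38 ± 0.23 (SD, n = 3), differed by 0.98 (standard error 0.29, 95% interval from 0.32 to 1.65, limma, BH-adjusted p = 0.278). Against control replicate 2 the difference was 0.87.

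*Podn* encodes podocan, which restrains smooth muscle growth. The table lists *Podn* at log2 values of 5.85, 5.69 and 4.89 across control replicates 3, 4 and 2, against 5.93, 5.92 and 5.09 across replicates 1, 2 and 3 labelled Hsp47-deleted. Control replicate 2 and Hsp47-deleted replicate 3 lay below the other 4, so that the groups overlapped. The log2 fold change was 0.17 (standard error 0.39, 95% interval from -0.73 to 1.07, limma, BH-adjusted p = 0.846), and 0.76 against control replicate 2.

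*Ecm2* encodes a matrix protein with SLRP-like repeats. *Ecm2* had log2 values of 8.76, 8.82 and 7.57 across control replicates 3, 4 and 2, against 8.44, 8.43 and 8.58 across replicates 1, 2 and 3 labelled Hsp47-deleted. Control replicate 2 lay below the other 5 libraries, among which the controls were the higher. The log2 fold change was 0.10 (standard error 0.40, 95% interval from -0.81 to 1.02, limma, BH-adjusted p = 0.917), and 0.92 against control replicate 2.

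**Figure D1:**
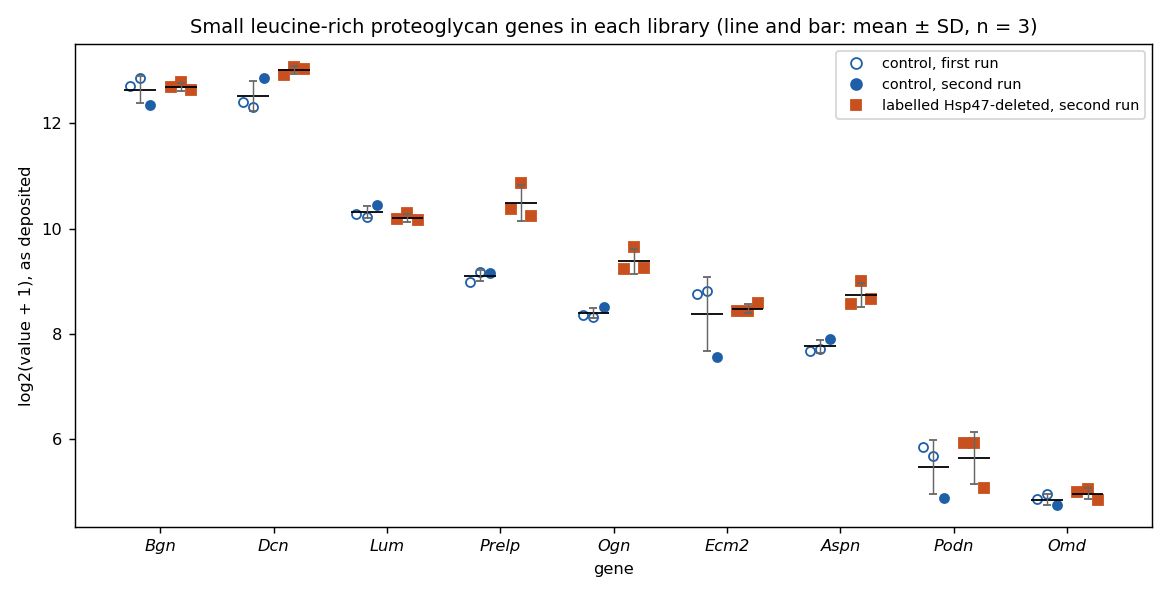
The log2(value + 1) of each of the 9 genes (y axis) in each library, by gene (x axis, ordered by control mean). Open circles are controls of the first run, the filled circle is the control of the second run, squares are libraries labelled Hsp47-deleted, and lines with bars give the mean ± SD (n = 3). The squares stand clear of the circles for *Prelp*, *Ogn* and *Aspn*, while for *Ecm2* the control of the second run lies at 7.57, below the other 5 libraries.

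Counted together, 4 of the 9 genes (*Dcn*, *Aspn*, *Ogn* and *Prelp*) were higher without overlap between the groups, and 18.3% of all tested genes were. At an unadjusted limma p under 0.05, 3 of 9 (*Prelp*, *Aspn* and *Ogn*) were higher and none was lower, against 14.5% of all tested genes that were higher. The Hsp47-deleted label had the higher mean for 8 of the 9, of which *Bgn*, *Omd*, *Podn* and *Ecm2* turned lower with the libraries centred on their medians (from -0.24 to -0.36), *Omd*, *Podn* and *Ecm2* with quantile normalization, and *Bgn*, *Omd* and *Ecm2* with equal sums of linear values. However, the median log2 fold change of the 9, 0.17, lay below that of all tested genes by 0.18, and 74.5% of all tested genes were higher. This order depended on the setting: against control replicate 2 alone and with run as a covariate the median of the 9 was 0.76 against 0.29 for all tested genes, and with quantile normalization 0.39 against -0.048. Relative to the median of all tested genes, *Prelp*, *Ogn*, *Aspn* and *Dcn* were higher by 1.02, 0.63, 0.62 and 0.13, and the other 5 lay from -0.46 (*Lum*) to -0.18 (*Podn*) relative to it. *Prelp* stood above 93.4% of all tested genes and *Lum* above 19.6%. In bulk samples such as these, fewer cells of a type and less RNA per cell cannot be told apart.

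The counts were also read within the second run. There, all 3 libraries labelled Hsp47-deleted lay above control replicate 2 for 8 of the 9 genes and below it for *Lum*. Of all tested genes, 46.7% lay above it in this way and 11.7% below. *Prelp*, *Ogn* and *Aspn* kept differences of 1.32, 0.87 and 0.84 there, and those of *Ecm2* and *Podn* were 0.92 and 0.76. Without control replicate 2, 3 of the 9 passed (*Prelp*, limma, BH-adjusted p = 0.0178, and *Aspn* and *Ogn*, both 0.0310), against 16.4% of all tested genes called higher. In that comparison the run and the label coincide and cannot be told apart. Under the other alternatives the BH-adjusted limma p ran from 0.159 to 0.948 for *Prelp*, from 0.244 to 0.970 for *Aspn* and from 0.241 to 0.970 for *Ogn*. *Dcn* moved to 1.21 with quantile normalization.

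**Figure D2:**
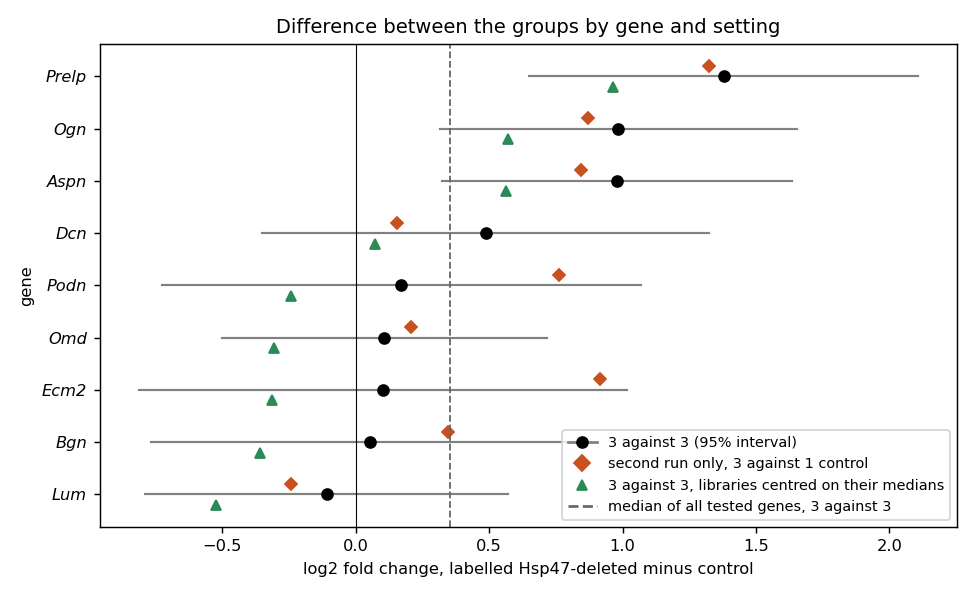
Log2 fold change, libraries labelled Hsp47-deleted minus controls (x axis), for each of the 9 genes (y axis). Circles with lines are the pooled comparison with its 95% interval, diamonds the difference from control replicate 2, triangles the pooled comparison after centring each library on its median, and the dashed line the median of all tested genes, 0.355. *Prelp*, *Ogn* and *Aspn* lie right of the dashed line in all 3 settings, and *Ecm2* moves from 0.10 to 0.92 with the control used.

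Differences between 2 genes of the same library do not depend on how that library is scaled, apart from the pseudocount. Relative to *Dcn*, the log2 value of *Prelp* was -3.41 ± 0.27 in the controls and -2.52 ± 0.30 in the libraries labelled Hsp47-deleted (SD, n = 3), a shift of 0.89. *Ogn* and *Aspn* shifted by 0.50 and 0.49, and *Lum* by -0.60. These 4 ratios did not overlap between the groups. Thus 3 of the other 8 genes were higher relative to *Dcn*, as were 6.14% of all tested genes, and 1 of 8 was lower, as were 6.24%. The exact two-sided permutation p of each was 0.10, the smallest that 3 libraries against 3 allow, so no such ratio can pass 0.05. Ratios of *Bgn*, *Omd*, *Podn* and *Ecm2* to *Dcn* overlapped between the groups. Against control replicate 2 alone the shifts relative to *Dcn* were 1.17 for *Prelp*, 0.72 for *Ogn*, 0.69 for *Aspn* and -0.40 for *Lum*.

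Relative to *Col1a1*, the fibrillar collagen chain that these proteins coat, fewer genes stood apart. *Prelp* was 0.66 ± 0.20 in the controls and 1.37 ± 0.16 in the libraries labelled Hsp47-deleted (SD, n = 3), a shift of 0.71. *Lum* shifted by -0.78. Neither overlapped between the groups (exact permutation p = 0.10 each), so 1 of 9 was higher, against 2.72% of all tested genes, and 1 of 9 lower, against 10.0%. The other 7, *Ogn* and *Aspn* among them, overlapped. *Col1a1* itself differed by 0.67 log2 units (limma, BH-adjusted p = 0.374), and by 0.38 against control replicate 2.

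**Figure D3:**
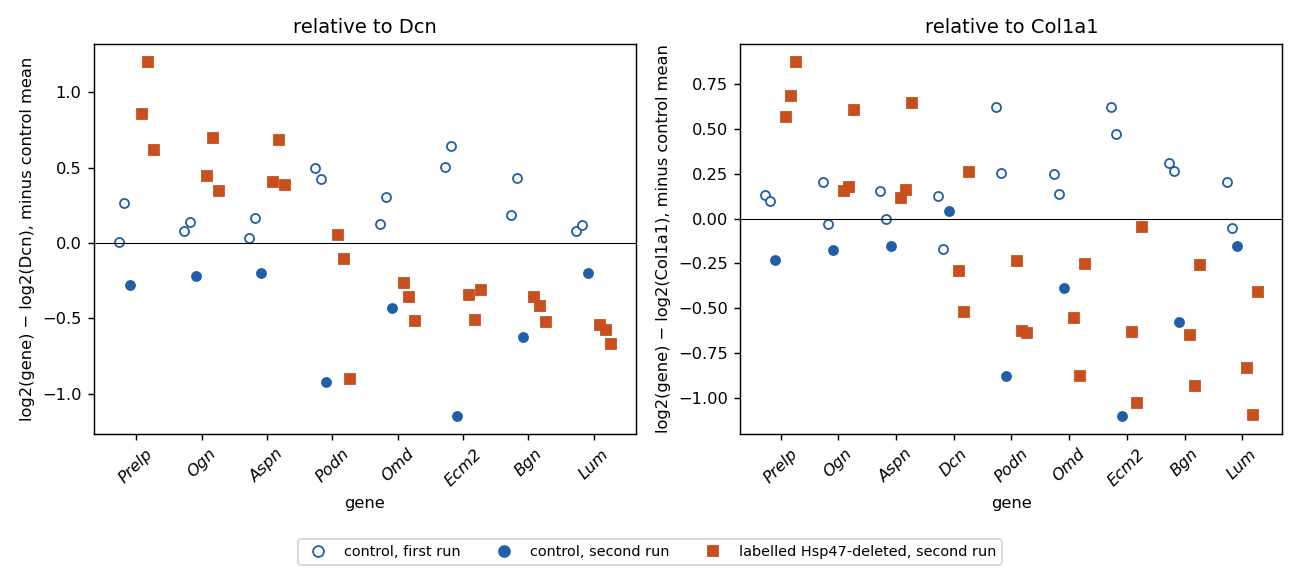
Log2 value of each gene minus that of *Dcn* (left) or *Col1a1* (right) in the same library, with the control mean of that ratio set to 0 (y axes, log2 units), by gene (x axes) and with the symbols of each group and run in the legend. *Prelp* lies above all controls and *Lum* below all controls in both panels, by 0.89 and -0.60 relative to *Dcn*; *Ogn* and *Aspn* are apart from the controls only on the left.

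The 9 genes made up from 1.91% to 2.15% of the summed linear values in the controls against 2.16% to 2.54% in the libraries labelled Hsp47-deleted. The submitters' notes list kallisto, whose usual unit is per transcript length, but the table does not name its unit, so shares and orders between genes hold only if the values are per length. On that reading *Dcn* and *Bgn* together held 81.2%, 81.6% and 81.7% of the linear sum of the 9 genes across control replicates 3, 4 and 2, against 78.6%, 76.2% and 79.4% across replicates 1, 2 and 3 labelled Hsp47-deleted. The share of *Prelp* was from 3.43% to 3.74% in the controls against 6.51% to 9.10% in the libraries labelled Hsp47-deleted. That of *Lum* was from 7.80% to 9.09% and from 6.13% to 6.36%. The log2 value of *Prelp* minus that of *Lum* was -1.28, -1.06 and -1.29 across control replicates 3, 4 and 2, against 0.19, 0.57 and 0.076 across replicates 1, 2 and 3 labelled Hsp47-deleted, a pair picked after its values were seen. *Lum* was thus above *Prelp* in each control and below it in each library labelled Hsp47-deleted. The order of *Dcn* and *Bgn* followed the run instead. *Dcn* minus *Bgn* was -0.31 and -0.55 in the controls of the first run, 0.50 in control replicate 2, and 0.24 to 0.40 where the label was Hsp47-deleted.

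Among the 4 neighbours on chromosome 13, larger and smaller differences alternated in the pooled comparison, whereas *Ecm2*, at 0.92, matched *Aspn* and *Ogn* in size against control replicate 2. Along the plus strand the log2 fold changes were 0.10 for *Ecm2*, 0.98 for *Aspn*, 0.11 for *Omd* and 0.98 for *Ogn*. *Aspn* minus *Omd* was 2.91 ± 0.20 in the controls and 3.78 ± 0.18 in the libraries labelled Hsp47-deleted (SD, n = 3), and *Ogn* minus *Omd* was 3.54 ± 0.19 and 4.41 ± 0.17. In contrast, *Ogn* minus *Aspn* stayed between 0.59 and 0.68 in the 6 libraries, with means of 0.63 ± 0.042 and 0.64 ± 0.038 (SD, n = 3). *Ecm2* set against *Ogn* followed the run: *Ogn* minus *Ecm2* was -0.41 and -0.49 in the controls of the first run, 0.94 in control replicate 2, and 0.67 to 1.22 where the label was Hsp47-deleted.

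**Figure D4:**
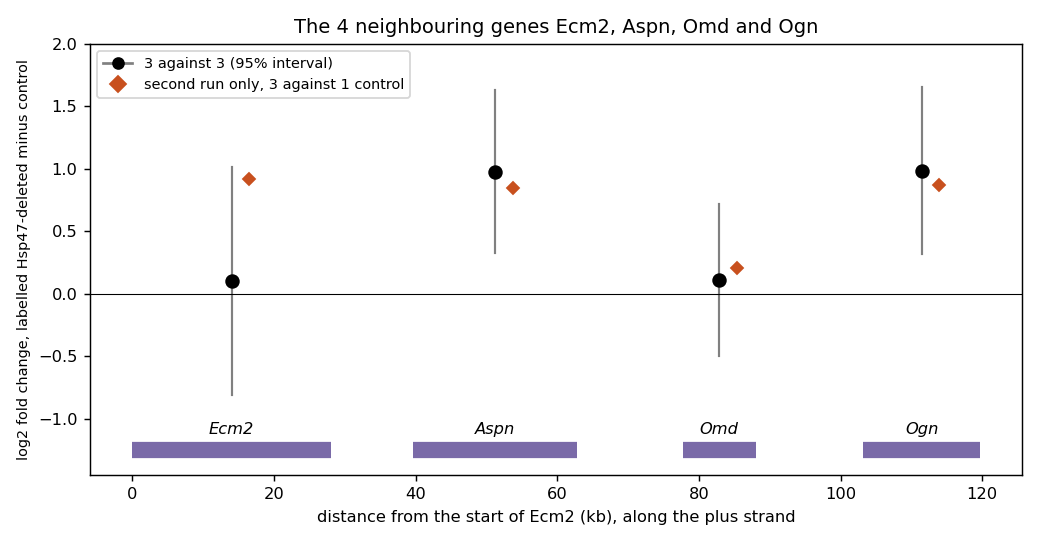
The 4 neighbouring genes drawn to scale as bars by distance from the start of *Ecm2* (x axis, kb), with the log2 fold change of each above it (y axis). Circles with lines are the pooled comparison with its 95% interval and diamonds the difference from control replicate 2. *Aspn* and *Ogn* lie at 0.98 and 0.98, with *Omd* between them at 0.11.

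Profiles were compared by the root mean square (RMS) difference of log2 values over the 6 libraries, after the mean of each gene was subtracted. Among 8749 genes whose mean linear value was 5 or more, *Ogn* was the nearest to *Aspn* (RMS 0.0327). The nearest to *Ogn* was *Ccnl1* (0.032), with *Aspn* next. *Prelp* was likewise higher without overlap between the groups, as were 18.3% of all tested genes, but by a larger difference. It lay at an RMS of 0.218 from *Ogn* and 0.224 from *Aspn*, and its nearest gene was *Kcnj15* (0.115). *Bgn* and *Omd* were the next closest pair of the 9, at 0.103, and *Dcn* and *Bgn*, whose proteins are close relatives, were 0.388 apart. The mean profile of the 9 genes was most like those of *Mocs1* (0.0584), *Cnbd2* (0.0688), *Gss* (0.0732), *Pdlim1* (0.0768) and *Ecm1* (0.0769). These are descriptions over 6 libraries that share group and run.

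Of the 8 further SLRP family genes, 6 passed the filter, with *Kera* and *Podnl1* below it. *Fmod*, which encodes fibromodulin, a collagen-binding relative of lumican, had log2 values of 6.19, 6.82 and 6.45 across control replicates 3, 4 and 2, against 8.50, 9.04 and 9.17 across replicates 1, 2 and 3 labelled Hsp47-deleted. No control reached the libraries labelled Hsp47-deleted, and it was the only one of the 6 that rose at a BH-adjusted limma p under 0.05, by 2.42 (limma, BH-adjusted p = 0.0485). With run as a covariate its difference was 2.45 (limma, BH-adjusted p = 0.108). Without any 1 library other than control replicate 2 it was from 2.27 to 2.62 (BH-adjusted p from 0.105 to 0.279), and over all alternatives that p ran from 0.00559 to 0.364. *Chad*, which encodes the cartilage protein chondroadherin, was at 2.89, 2.45 and 3.21 across control replicates 3, 4 and 2, against 4.77, 5.61 and 5.45 across replicates 1, 2 and 3 labelled Hsp47-deleted, and its difference was 2.43 (limma, BH-adjusted p = 0.0562) or 2.07 against control replicate 2. *Optc*, the neighbour of *Prelp*, differed by 1.06 log2 units (limma, BH-adjusted p = 0.307) with no overlap between the groups, and by 1.41 against control replicate 2. *Tsku*, the gene of a secreted BMP and Wnt modulator, had a log2 fold change of 1.43 in the pooled comparison and -0.24 against control replicate 2. *Nyx* and *Epyc* differed by 0.23 and 0.20, and by 0.56 and -0.60 against control replicate 2. At an unadjusted limma p under 0.05, 3 of the 6 were higher, beside 14.5% of all tested genes. The median log2 fold change of the 6 was 1.24 pooled and 0.98 against control replicate 2.

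The genes that build, bind or cut these proteins were read from lists written by hand. Values in parentheses are the pooled log2 fold change followed by the difference from control replicate 2, and higher means an unadjusted limma p under 0.05, which 14.5% of all tested genes met. Of the 11 fibrillar collagen genes, 9 were tested and 2 were higher, *Col11a2* (1.59, 1.23) and *Col5a2* (0.84, 0.69). Of 22 genes for chondroitin and dermatan sulfate chains, 21 were tested and 3 were higher, a share near that of all genes. Those with the smallest p were *Chpf* (2.00, 0.25), which extends the chain, and *B4galt7* (0.83, 0.72), which builds its linker. *Chpf* was thus ordered by run more than by label. Of 12 genes for keratan sulfate chains, 9 were tested and none was past that p in either direction, with the smallest p for *Fut8* (0.49, -0.035) and *St3gal2* (0.62, -0.33). Proteases that cut SLRPs or procollagen and their enhancers counted 10 tested of 12, 4 of them higher, with the smallest p for *Mmp2* (1.07, 0.97) and *Bmp1* (1.15, 0.33), which removes the propeptides of biglycan and procollagen. Growth factors and receptors that SLRPs bind counted 14 tested of 15, 6 of them higher, with the smallest p for *Bmp6* (1.17, 0.94) and *Tgfb1* (1.37, 0.82). Other secreted proteoglycans counted 9 tested of 12, 3 of them higher, with the smallest p for *Spock2* (1.47, 0.33) and *Esm1* (0.86, 0.90). None was lower at that p in these 6 lists, and none of their genes passed a BH-adjusted p under 0.05.

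The medians of these lists depended on the control used. Pooled, they were 0.67 for fibrillar collagens, 0.48 for chondroitin and dermatan sulfate chains, 0.26 for keratan sulfate chains, 0.75 for proteases, 0.63 for factors and receptors and 0.53 for other secreted proteoglycans, beside 0.17 for the 9 SLRPs and 0.355 for all tested genes. Against control replicate 2 alone they were in the same order 0.38, 0.24, -0.035, 0.47, 0.59 and 0.33, beside 0.76 for the 9 SLRPs and 0.29 for all tested genes. Among these lists, the 9 SLRPs thus had the lowest median in the pooled comparison and the highest within the second run, where 1 control decides every value. The other SLRP family genes, not in that ranking, had higher medians than the 9 in both, at 1.24 and 0.98.

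**Figure D5:**
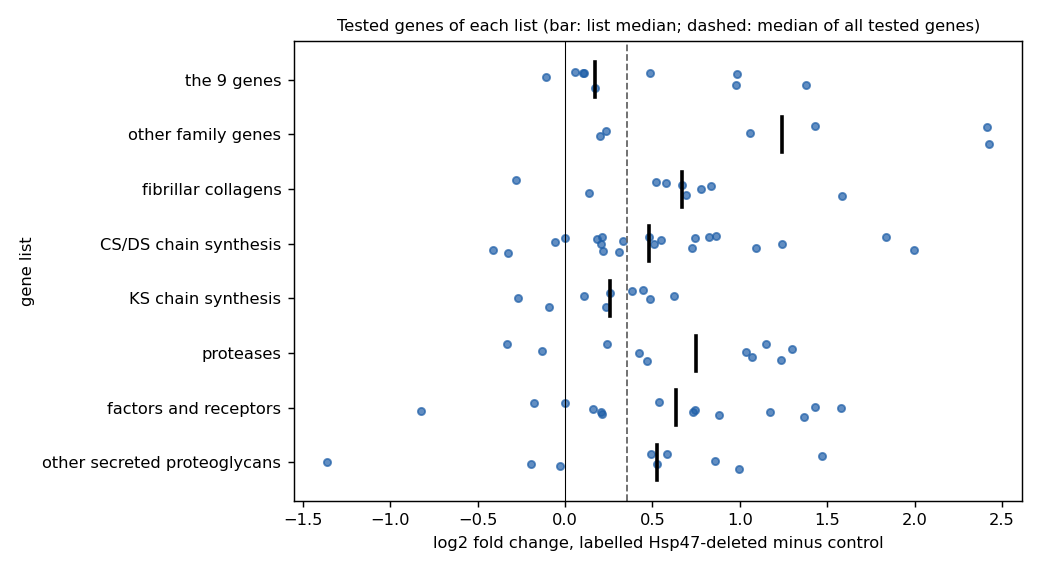
Log2 fold change, libraries labelled Hsp47-deleted minus controls (x axis), of each tested gene (points) in the 9 SLRPs, the other family genes and the 6 lists of related genes (y axis), with the median of each list (bar) and of all tested genes (dashed line, 0.355). In this pooled comparison the other family genes have a median of 1.24 and the 9 SLRPs one of 0.17, and CS/DS and KS stand for chondroitin or dermatan sulfate and keratan sulfate.

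Markers of the cells in the sort were read beside these results. The 8 fibroblast markers were all detected, and their summed linear value was from 999 to 1340 in the controls against 2720 to 3460 in the libraries labelled Hsp47-deleted. *Postn* made up most of that difference, with log2 values of 5.87, 5.86 and 6.12 across control replicates 3, 4 and 2, against 10.22, 10.50 and 10.36 across replicates 1, 2 and 3 labelled Hsp47-deleted (log2 fold change 4.41, limma, BH-adjusted p = 0.00337; 4.24 against control replicate 2). *Tcf21*, a transcription factor of resident fibroblasts, had log2 values from 4.80 to 6.47 in the controls against 7.28 to 7.67 in the libraries labelled Hsp47-deleted, which lay 1.02 above control replicate 2 on average. Its pooled log2 fold change was 2.09 (limma, BH-adjusted p = 0.187). Thus *Postn* and *Tcf21*, picked from the 8 markers after their values were seen, moved with the labels in the direction of *Prelp*, *Ogn* and *Aspn*. Their part in those results was not tested. *Pdgfra* differed by 0.34 (limma, BH-adjusted p = 0.704), and by -0.28 against control replicate 2. Other markers of the list also changed sign with the control used. *Thy1* differed by 0.81 pooled and -0.60 against control replicate 2, *Fap* by 0.25 and -0.026, and *Ddr2* by -0.21 and 0.35. *Col1a1* differed by 0.67 and 0.38, and *Col1a2* by 0.52 and 0.38.

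Markers of other cells were present, and for each type the summed linear values overlapped between the groups with the controls pooled. The sums ran from 54.2 to 312 in the controls against 180 to 284 in the libraries labelled Hsp47-deleted for cardiomyocytes (9 of 10 genes tested), from 92.6 to 248 and from 157 to 235 for endothelial cells (8 of 8), and from 31.9 to 251 and from 124 to 192 for leukocytes (6 of 7 in the table, with *Ptprc* at 0 in all libraries). They ran from 164 to 289 and from 115 to 175 for mural cells (7 of 7), from 1.37 to 6.32 and from 3.48 to 11.2 for epicardial and mesothelial cells (1 of 6), from 9.22 to 18.6 and from 18.4 to 24.0 for Schwann cells (4 of 6), and from 13.3 to 342 and from 81.1 to 137 for erythroid cells (3 of 4 in the table). Control replicate 2 lay above all 3 libraries labelled Hsp47-deleted for cardiomyocytes (312), endothelial cells (248), leukocytes (251), mural cells (222) and erythroid cells (342). Against it, the median differences of these tested markers were -0.59, -0.43, 0.056, -0.61 and -1.29 in that order, beside 0.29 for all tested genes. For epicardial and Schwann cells its sum (6.32 and 18.6) lay among those of the libraries labelled Hsp47-deleted. For scale, the 9 SLRP genes summed to between 14900 and 20500 in each library. The part of these cells in the SLRP values was not tested.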

How the data were processed

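RNA from GFP+ ventricle cells (3 control libraries and 3 labelled Hsp47-deleted) was amplified with the Ovation RNA-Seq System and sequenced after Nextera XT preparation, neither of which marks strand. The table that the authors deposited holds log2(value + 1) of 28987 genes by library, and also their group means and their own comparison (fold, p-values), which were not used. The submitters' processing notes list kallisto and mm10, and the paper names AltAnalyze; the linear unit and versions are not given in the sources used here. The linear values hold fractions and are not counts, so depth is unknown and no interval that needs it is given. No 2 libraries were identical, with at most 227 equal values among the tested genes.

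Genes whose mean linear value was 1 or more were kept (15109 tested, 13878 left out) and tested between the groups by limma 3.58.1 under R 4.3.3 (lmFit, eBayes with a trend, no covariate), with Benjamini-Hochberg adjustment over all tested genes. The fit was checked on simulated data, and no result of that check is given here. It bears on the calculation only, and not on the run, which partly coincides with the label in these libraries. With the pseudocount of 1 kept, fold changes of low genes are understated. Ratios within a library were compared by an exact two-sided permutation test, whose p cannot go below 0.10 with 3 against 3.

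Named in the text are the 9 genes, the tested other SLRP family genes and the 2 genes with the smallest p of each related list. Also named are the 5 genes with the profile nearest to the mean of the 9 (mean of at least 5, no predicted genes), overlapping genes and *Serpinh1*. *Col1a1*, *Col1a2*, *Postn*, *Tcf21*, *Pdgfra*, *Thy1*, *Fap*, *Ddr2*, *Ccnl1*, *Kcnj15* and *Vcan* were named after their values were seen. The 9 genes and all lists were chosen with earlier results of these data known. Alternatives were run as a covariate, the second run alone, the replicate number as a block, other filters, pseudocounts of 0.1 and 5, quantile, median and equal-sum scaling, limma without trend or with robust estimation (statmod 1.5.0), and leaving out each library. Run combined with median centring was added after the data were seen. Near-identical copies were sought with minimap2 2.31-r1302 (at least 95% identity over 80% of the length).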

Additional observations from a re-analysis of the deposited data

How the results depend on the processing

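*Prelp*, *Ogn* and *Aspn* kept a positive difference in 20 of 20 alternatives (0.84 to 1.51, 0.42 to 1.05 and 0.39 to 1.06 on the log2 scale) and *Lum* a negative one in 20 of 20 (-0.65 to -0.041). The same sign as reported was kept in 18 alternatives by *Dcn*, 17 by *Bgn*, 17 by *Podn*, 16 by *Ecm2* and 15 by *Omd*. The 20 were not separate checks of sign. Other filters, limma without trend and robust estimation leave a log2 fold change as it was. The run covariate gives the same log2 fold change as the second run alone, with or without centring. All alternatives use the same 6 libraries. The number of the 9 genes called was 0 except without control replicate 2, when it was 3 (0 to 3 with 1 library left out), where run and label coincide. The median of the 9, 0.17 as reported, was 0.76 with run as a covariate and within the second run, 0.39 with quantile normalization and -0.24 with median centring, where the median of all tested genes was 0.29, -0.048 and -0.060. It ran from 0.057 to 0.45 with 1 library left out. Combined with median centring, an alternative chosen after seeing the data, the second run alone and the run covariate both gave 0.52. Genes of the 9 without overlap in either direction, 4 as reported (19.8% of all tested genes), numbered 9 within the second run (58.4%), where 1 control makes overlap rarer, 8 there with centring (52.7%), and 7 with quantile normalization (13.8%). With 1 library left out they numbered from 4 to 6. The share of all tested genes was not worked out for that setting, in which overlap is also rarer. The cause of these moves was not tested. Within the second run, the lone control is assumed to vary like the libraries labelled Hsp47-deleted.

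Single genes turned sign as follows. With run as a covariate and within the second run, *Epyc* went to -0.60, *Tsku* to -0.24, *Fut8* to -0.035 and *St3gal2* to -0.33. With centring added to either, *Dcn* went to -0.090, *Omd* to -0.037, *Epyc* to -0.85, *Tsku* to -0.49, *Fut8* to -0.28 and *St3gal2* to -0.57. Quantile normalization gave -0.23 for *Omd*, -0.14 for *Podn*, -0.51 for *Ecm2*, -0.24 for *Epyc* and -0.18 for *Nyx*. Median centring gave -0.36 for *Bgn*, -0.31 for *Omd*, -0.24 for *Podn*, -0.31 for *Ecm2*, -0.22 for *Epyc* and -0.18 for *Nyx*. Equal sums gave -0.074 for *Bgn*, -0.017 for *Omd* and -0.027 for *Ecm2*. Without control replicate 2, *Bgn* was -0.090, *Podn* -0.12 and *Ecm2* -0.31, and without control replicate 4 *Epyc* was -0.26, against 0.60 without control replicate 2. With 1 library left out *Ecm2* was at most 0.32.

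The groups share the replicate numbers 2 and 3. Deviations of same-numbered libraries correlated at r = 0.156 and 0.228 over 15109 genes, but control replicate 2 correlated more with Hsp47-deleted replicate 1 (0.382). These deviations also carry the difference between the runs of the controls. They therefore cannot decide whether libraries were paired, and the labels give no pairing beyond the number. With the number as a block the median of the 9 was 0.34, *Epyc* went to -0.15, and 0 genes were called in place of 37.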

Other observations

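*Kera*, which encodes the corneal proteoglycan keratocan, and *Podnl1*, a relative of *Podn*, were below the filter. Log2 values of *Kera* were from 0 to 0.44 in the 6 libraries and those of *Podnl1* from 0.045 to 0.73. *Vcan*, the gene of the large proteoglycan versican, had log2 values of 10.57 and 11.53 in the controls of the first run, 8.72 in control replicate 2, and 8.53 to 9.19 where the label was Hsp47-deleted. Its log2 fold change was -1.36 (limma, BH-adjusted p = 0.363), and against control replicate 2 it was 0.19, so the sign of its difference depended on the control used. *Tsku* was also ordered by run, with log2 values of 1.80 and 1.54 in the controls of the first run and from 3.01 to 4.52 in the 4 libraries of the second run.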
